A study of Homo sapiens with 36 samples.

Results

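Transcripts of 10 NODAL and BMP signalling genes were followed through a polysome gradient in human embryonic stem cells with and without RBPMS, an RNA-binding protein. The members were given by a fixed list of transcript IDs, 1 for each gene, which was chosen with earlier results of these data known. All 10 were found among the 223367 transcripts of the table, and 9 of them reached 1 TPM (an abundance unit that allows for transcript length and sums to the same total in each library) in at least 3 libraries, as did 51052 transcripts in all. The tenth, SMAD2, stayed below 1 TPM everywhere and is given by its values only.

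The line was HUES6, established human embryonic stem cells, grown in FTDA medium. They were unmodified (WT) or carried a knockout of RBPMS (KO), and every culture of both genotypes received cycloheximide at 100 ng/ml for 5 min, which holds ribosomes on their mRNAs. Each genotype gave 3 cultures, and each culture gave 6 libraries, namely Input (not fractionated), 40S, 80S, disome (a pair of ribosomes), Polysome1 and Polysome2. Equal RNA went into all 36 libraries, so a value gives the make-up of a fraction, never how much RNA the fraction held, and fewer cells or less RNA per cell cannot be told apart. The number of knockout clones, and whether cultures were grown on separate days, are not given in the sources used here, so the p-values measure the spread between these cultures, which may be technical. Depth of sequencing is unknown. Genes are named here for the listed members only, so RBPMS, stem cell markers and the other genes of these pathways were not analysed here, and the knockout is taken from the labels.

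NODAL (ENST00000287139) is a ligand of the TGF-beta family that signals through activin receptors to SMAD2 (ENST00000262160) and its relative SMAD3, and it helps to keep human embryonic stem cells pluripotent. TDGF1 (ENST00000296145), also called CRIPTO, is its co-receptor, and LEFTY1 (ENST00000272134) and LEFTY2 (ENST00000366820) are secreted antagonists that NODAL signalling itself switches on. BMP4 (ENST00000245451) is the ligand of the BMP branch, BMPR1A (ENST00000372037) is one of its receptors, and SMAD4 (ENST00000342988) is the partner that the signal-carrying SMADs of both branches share. ID1 (ENST00000376112) and ID3 (ENST00000374561), inhibitors of basic helix-loop-helix transcription factors, are textbook direct targets of BMP signalling.

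Some libraries stood apart. KO Input libraries of cultures 1 and 2 held 18666 and 21914 transcripts at 1 TPM or more, KO Input of culture 3 held 31380, and the WT Input libraries held 34899 to 38389. KO cultures 1 and 2 also held fewer than KO culture 3 in every gradient fraction. In Polysome2 they held 21548 and 20594, against 30940 in KO culture 3 and 27558 to 30336 in WT. In 80S they held 18407 and 18851 against 27832 in KO culture 3, and in Polysome1 20899 and 21623 against 30880. Over the tested transcripts, KO Input of cultures 1 and 2 correlated with the WT Input mean at 0.462 and 0.59 and with the WT disome mean at 0.717 and 0.834, whereas KO Input of culture 3 correlated with the WT Input mean at 0.911 and with the WT disome mean at 0.826. These are Pearson's r of log2(TPM + 1) over 51052 transcripts, given as a description. The KO disome library of culture 1 held 9867 transcripts at 1 TPM and had 70.5% of its TPM in 10 transcripts, and the WT 40S library of culture 3 held 8956 transcripts. Spike-in RNA of the External RNA Controls Consortium (ERCC) took more TPM in KO than in WT in each fraction, for example 579, 498 and 47.8 TPM in the KO Polysome2 libraries against 9.41, 8.50 and 2.55 in WT. Scaling to the spike-ins moved the median KO difference of all tested transcripts from -0.51 to -1.37 on the log2 scale in Input and from -0.22 to -3.40 in Polysome2. A direction that this scaling turns is named as such.

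In WT Input TDGF1 was the most abundant member, at 436 ± 72.0 TPM (SD, n = 3), followed by ID1 at 175 ± 82.7 and ID3 at 66.1 ± 23.0. LEFTY1 had 27.8 ± 45.1 TPM and NODAL 19.8 ± 20.9, and neither of these neighbours in the order could be told from the other beyond its spread. SMAD4 (4.89 ± 0.31), BMP4 (4.84 ± 2.46), BMPR1A (4.35 ± 2.70) and LEFTY2 (2.41 ± 2.66) lay close together, and SMAD2 had 0.211 ± 0.0143 TPM. Among the tested transcripts, the WT Input mean of TDGF1 stood at percentile 99.5, that of ID1 at 98.8 and that of NODAL at 90.6. In KO Input the same gene led, with TDGF1 at 310 ± 162 TPM (SD, n = 3), ID1 at 52.1 ± 16.8, NODAL at 19.8 ± 3.15, LEFTY1 at 17.9 ± 11.2 and ID3 at 11 ± 9.03. The listed SMAD2 and SMAD4 IDs are single transcripts, and a low value says nothing about other isoforms of those genes.

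**Figure D1:**
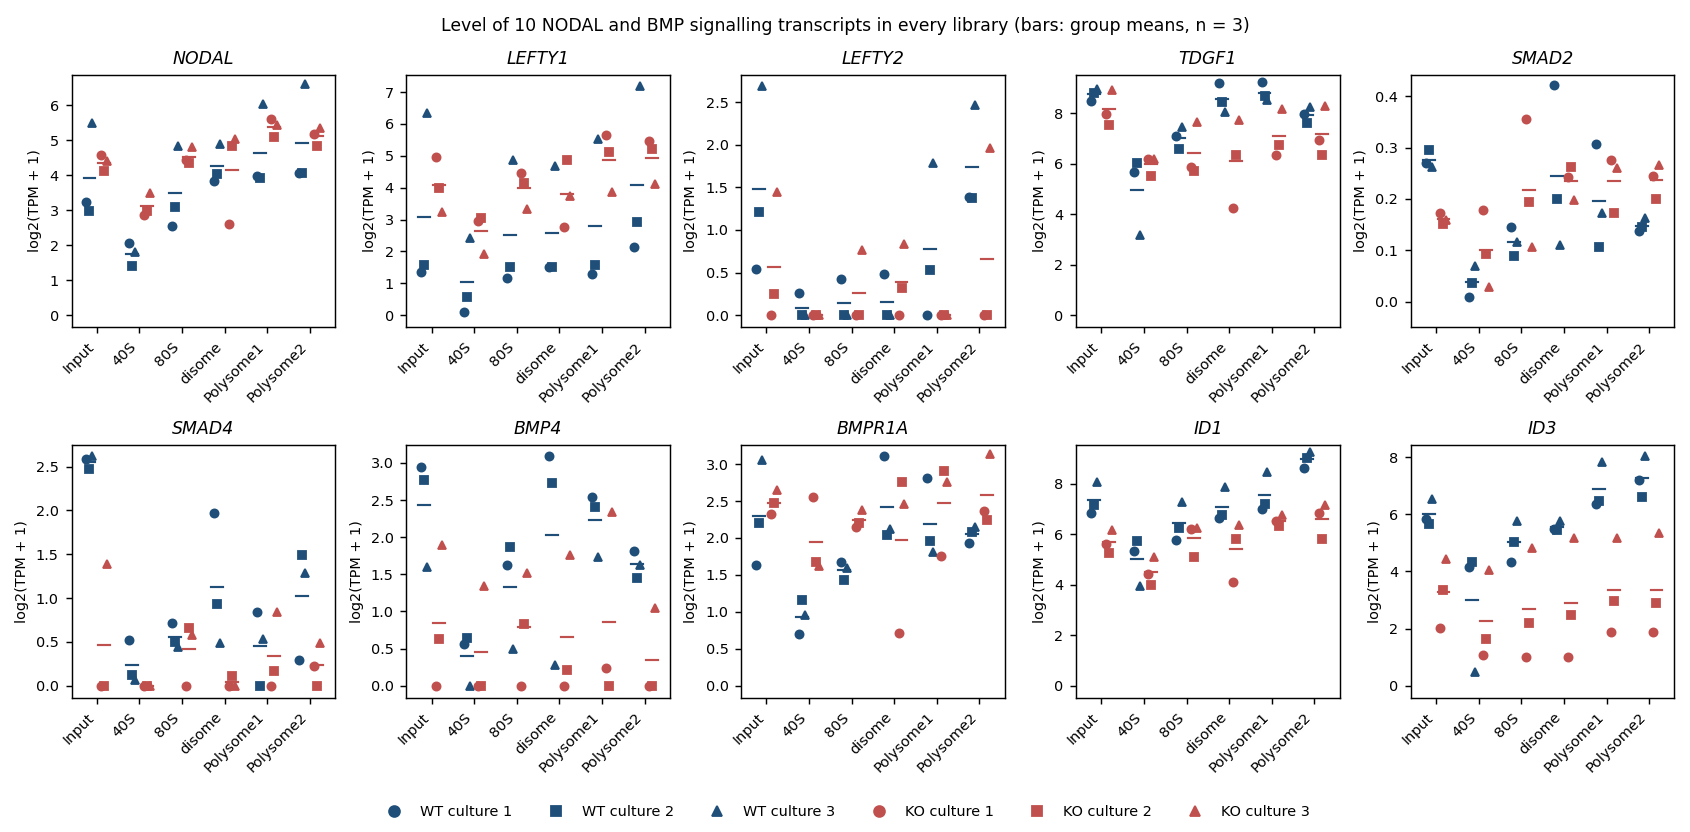
Level of each of the 10 members in all 36 libraries, as log2(TPM + 1) on the vertical axis against the 6 fractions on the horizontal axis, with WT in blue and KO in red. Circles, squares and triangles are cultures 1, 2 and 3, and bars are the means of 3 cultures. ID1 shows all 3 KO points below all 3 WT points in Input, disome, Polysome1 and Polysome2, and LEFTY1 shows 1 WT culture far above the other WT cultures.

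The BMP targets ID1 and ID3 fell in KO Polysome2, ID1 by 5.15-fold and ID3 by 15.1-fold on the log2(TPM + 1) scale. ID3 had the lowest KO difference of the 9 tested members in each of the 6 fractions, and in Input, disome and Polysome1 both targets lay below WT in all 3 KO cultures without passing the test. By limma 0 of the 9 members rose in any fraction, and 0.0137% to 1.97% of all tested transcripts did. At an unadjusted p under 0.05 the only rise was that of BMPR1A in 40S. Their promoters are shown because they are the 2 members that are direct BMP targets and that shared this direction. Both sequences are the 250 bases before the RefSeq start site in GRCh38.p14, at chr20:31605039-31605288 on the plus strand for ID1 and chr1:23559502-23559751 on the minus strand for ID3, with motif matches in capitals and positions counted back from -1, the base before the start site.
ID1: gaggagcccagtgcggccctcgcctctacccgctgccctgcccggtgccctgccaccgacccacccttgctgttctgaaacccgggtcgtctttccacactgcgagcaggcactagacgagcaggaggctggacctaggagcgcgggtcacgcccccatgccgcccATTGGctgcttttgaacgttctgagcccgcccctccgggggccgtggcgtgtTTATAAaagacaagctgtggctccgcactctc
ID3: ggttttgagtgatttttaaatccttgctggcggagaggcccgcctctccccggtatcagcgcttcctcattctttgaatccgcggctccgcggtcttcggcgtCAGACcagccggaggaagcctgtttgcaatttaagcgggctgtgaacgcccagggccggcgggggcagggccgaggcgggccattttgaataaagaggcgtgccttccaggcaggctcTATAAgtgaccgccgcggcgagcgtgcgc
The motifs searched on both strands were the SMAD-binding letters CAGAC, the BMP-responsive letters GGCGCC, the TATA letters TATAA and the CCAAT box. They occur in 38.0%, 16.4%, 18.9% and 32.0% of the 35116 RefSeq promoter windows of this length. ID1 held CCAAT on the minus strand at -84 to -80 and TATAA at -31 to -27, with an overlapping TATAA match on the other strand at -32 to -28. ID3 held CAGAC at -147 to -143 and TATAA at -29 to -25, both on the plus strand. GGCGCC is not in either window. A match describes the letters and is not evidence of binding. Promoter windows were also listed for NODAL, SMAD2, SMAD4, BMP4 and BMPR1A.

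ID1 in Polysome2 was listed at 395, 525 and 616 TPM in WT and at 115, 55.2 and 144 TPM in KO. All KO cultures lay well below all WT cultures. The log2 difference was -2.36 (SE 0.63, limma adjusted p = 0.0271), lower in 3 of 3 KO cultures. The background for this comparison is that 5.52% of all tested transcripts passed the same threshold, 3.62% of them as lower, and 2 of the 9 tested members did, both lower. Without each culture in turn the ID1 difference ran from -1.96 to -2.65 and the adjusted p from 0.003763 to 0.2436, and it stayed under the threshold only without KO culture 3. With both KO cultures 1 and 2 left out it was -1.80 (limma adjusted p = 0.5061), and with a spread estimated from these 6 libraries alone the adjusted p was 0.1389.

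ID3 in Polysome2 was listed at 146, 96.8 and 263 TPM in WT and at 2.67, 6.39 and 39.2 TPM in KO. The groups did not overlap, and KO culture 3 was nearest to WT. Of all tested transcripts, 13.8% lay lower in all 3 KO Polysome2 libraries. The log2 difference was -3.92 (SE 1.13, limma adjusted p = 0.0399). The ID3 call was lost without any of the 3 WT cultures and without KO culture 1 or 2 (limma adjusted p 0.1039 to 0.2467), and without KO culture 3 the difference was -4.90. With KO cultures 1 and 2 both left out it was -1.96 (limma adjusted p = 0.6773), with a pseudocount of 0.1 the adjusted p was 0.0912, with no filter 0.1053 and with only the 6 libraries compared 0.1763. Another transcript ID had values identical to this ID3 transcript in all 36 libraries, so its estimate may be shared between the IDs.

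In Input, ID1 was listed at 112, 143 and 268 TPM in WT and at 48.0, 37.6 and 70.5 TPM in KO, which put KO -1.67 from WT in log2 units (SE 0.63, limma adjusted p = 0.0569). ID3 was listed at 56.1, 49.7 and 92.4 TPM in WT and at 3.03, 9.08 and 20.8 TPM in KO, a difference of -2.75 (SE 1.13, limma adjusted p = 0.0818). Neither overlapped between genotypes and neither passed the threshold, although ID3 passed with the culture as a random block (SE 0.95, limma adjusted p = 0.0360). Of all tested transcripts, 29.0% had 3 KO Input libraries below all 3 WT Input libraries, so this pattern was common in Input. With KO cultures 1 and 2 left out, KO Input is the single library of culture 3, which shows no spread. Its ID1 and ID3 levels were each below the lowest WT library, with differences of -1.20 and -1.57, smaller than with all cultures.

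The same order held for both targets in the disome and Polysome1 fractions. ID1 was listed at 97.9, 108 and 232 TPM in WT disome and at 16.5, 54.9 and 81.8 TPM in KO disome. ID3 was listed there at 43.7, 42.2 and 53.0 TPM in WT and at 0.983, 4.54 and 35.2 TPM in KO. The differences in disome were -1.65 (limma adjusted p = 0.1235) for ID1 and -2.68 (adjusted p = 0.1644) for ID3. In disome 13% of all tested transcripts lay lower in all 3 KO libraries.

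In Polysome1 ID1 was listed at 125, 148 and 350 TPM in WT and at 91.9, 80.2 and 106 TPM in KO. ID3 was listed at 81.1, 88.0 and 227 TPM in WT and at 2.71, 6.71 and 34.9 TPM in KO. The ID3 difference was -3.55 (SE 1.13, limma adjusted p = 0.0566). That is not past the threshold, and with the culture as a random block it was (SE 0.95, adjusted p = 0.0221). The ID1 difference was -1.01 (adjusted p = 0.283). Here 19.6% of all tested transcripts lay lower in all 3 KO libraries. In 40S and 80S the genotypes overlapped for both targets, with log2 differences of -0.49 and -0.58 for ID1 and -0.73 and -2.37 for ID3. The 40S directions turned without KO cultures 1 and 2, to 0.11 for ID1 and 1.07 for ID3.

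KO cultures differed among themselves in ID3 more than in ID1. In each of the 6 fractions KO culture 1 had the lowest and KO culture 3 the highest ID3 level of the KO cultures. The ratio of ID3 to ID1 within a library was 0.014 to 0.063 in KO culture 1, 0.083 to 0.241 in KO culture 2 and 0.272 to 0.465 in KO culture 3. In WT it was 0.357 to 0.647 in culture 1, 0.184 to 0.596 in culture 2 and 0.228 to 0.648 in culture 3 outside its 40S library, where it was 0.026. KO culture 3 thus lay within the WT range and KO culture 1, apart from that WT 40S library, below it.

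**Figure D2:**
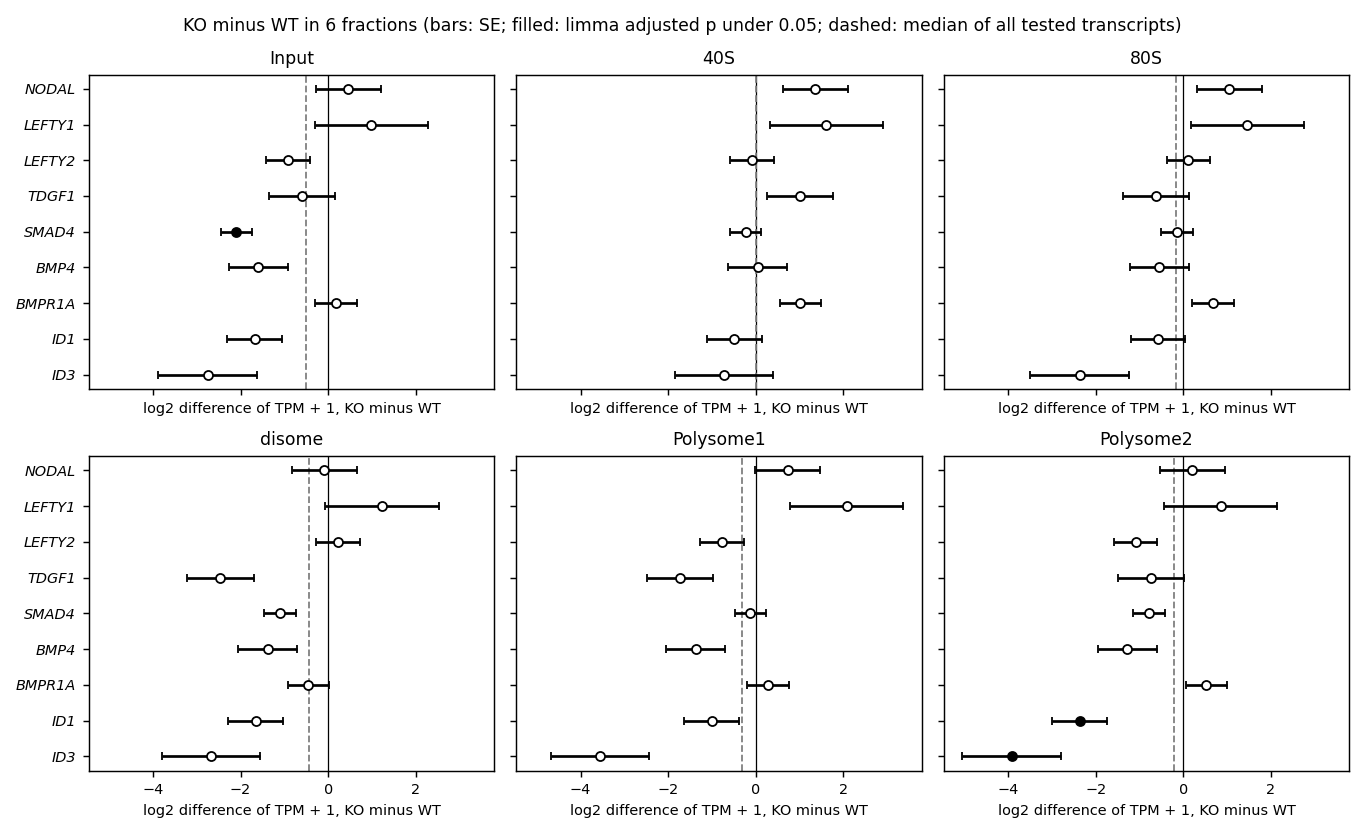
Difference between KO and WT for the 9 tested members in each of the 6 fractions, as log2 difference on the horizontal axis with bars of 1 SE. Filled points passed the threshold of 0.05 on the limma adjusted p, and the dashed line is the median of all tested transcripts. The filled points are SMAD4 in Input at -2.09 and ID1 and ID3 in Polysome2 at -2.36 and -3.92.

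The ratio of ID1 to NODAL within a library set the genotypes apart in every fraction, and a factor applied to a whole library cannot change such a ratio. In KO it ran from 1.73 to 3.64 over 18 libraries, with a median of 2.52. In WT it ran from 5.37 to 33.5, with a median of 9.29. Every KO library lay below every WT library, although the 18 libraries of a genotype come from 3 cultures and are not independent. The pair was chosen after its values were seen, as the only one of 15 pairs of members listed above 0 in all libraries that separated the genotypes in this way, and it has no test. Among 11435 transcripts that could be set against NODAL in the same manner, 0.0612% had all 18 KO ratios below all 18 WT ratios and 0% had all 18 above.

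The ID1 to NODAL ratio also differed between cultures of a genotype. It was 13.2, 20.6 and 6.11 in WT Input of cultures 1, 2 and 3 and 2.11, 2.28 and 3.49 in KO Input. WT culture 3 came nearest to KO, with 5.37 to 8.04 over its 6 libraries, and this is the WT culture in which NODAL itself was high. In WT Polysome2 the ratio reached 25.1 and 33.5 in cultures 1 and 2 and 6.31 in culture 3, against 3.25, 2.0 and 3.64 in KO. A ratio shows unequal levels of 2 transcripts and does not say which of them differed.

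**Figure D3:**
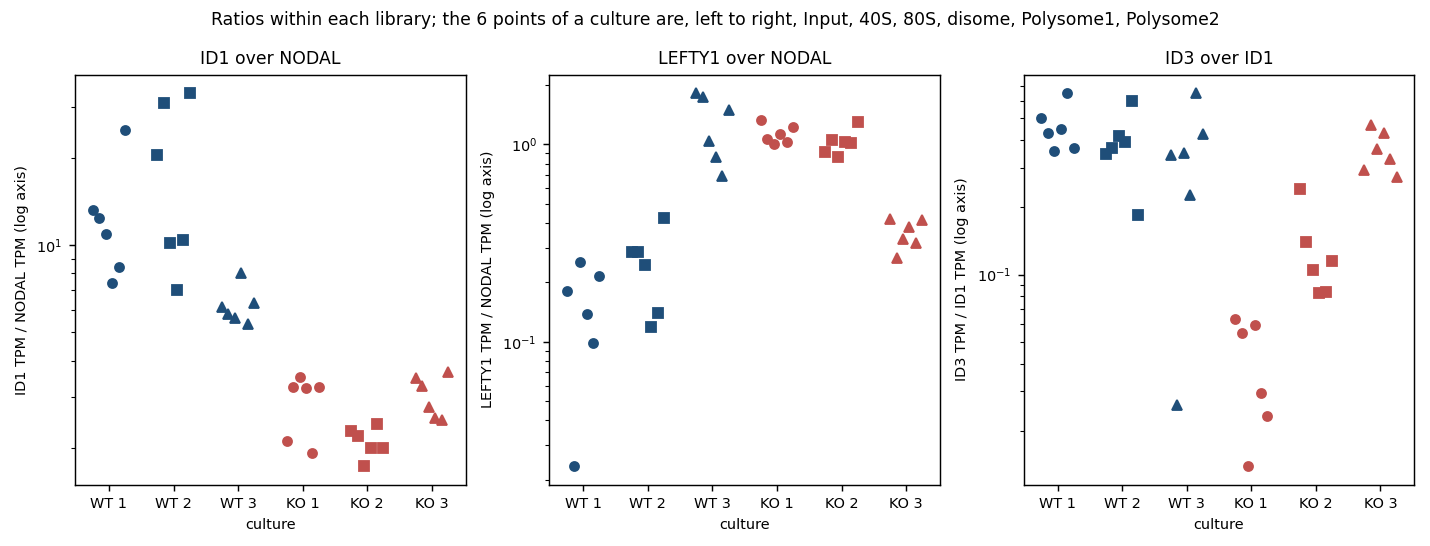
Ratios of TPM within a library on a log axis, for ID1 to NODAL, LEFTY1 to NODAL and ID3 to ID1. Each column is 1 culture and its 6 points are the fractions from Input to Polysome2, left to right. For ID1 to NODAL the KO points lie between 1.73 and 3.64 and the WT points between 5.37 and 33.5, and for LEFTY1 to NODAL the spread between cultures within a genotype is as wide as that between genotypes.

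NODAL, the ligand, passed no test between KO and WT in any fraction in the main fit, which used all cultures and no rescaling. In Input it stood at 8.49, 6.96 and 43.9 TPM in WT and at 22.7, 16.5 and 20.2 TPM in KO, so the KO cultures lay between the WT extremes. The log2 difference was 0.46 (SE 0.74, limma adjusted p = 0.6935), and it was 1.25 without WT culture 3, -0.0011 without WT culture 2 and -2.21 after spike-in scaling. In 40S NODAL was listed at 3.16, 1.67 and 2.50 TPM in WT and at 6.35, 6.88 and 10.3 TPM in KO, with no overlap. That difference was 1.36 (adjusted p = 0.993), turned to -0.60 by spike-in scaling. Of all tested transcripts, 8.99% lay higher in all 3 KO libraries of 40S. In 40S 0.0235% of all tested transcripts passed the threshold, and 0 of the 9 members did by limma, with 1 at an unadjusted p under 0.05, as had 5.65% of all transcripts. In Polysome2 NODAL was listed at 15.7, 15.7 and 97.6 TPM in WT and at 35.3, 27.6 and 39.5 TPM in KO. Spike-in scaling turned the NODAL difference there from 0.20 to -4.97, which passed as lower (limma adjusted p = 0.00086). Under that scaling 39009 of the 51052 tested transcripts passed in Polysome2.

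LEFTY1 showed the widest spread between cultures of the 9 tested members, with an SE of 1.29 for a KO difference. In Input it stood at 1.54, 1.99 and 79.8 TPM in WT and at 30.2, 15 and 8.47 TPM in KO. In Polysome2 it stood at 3.40, 6.61 and 145.6 TPM in WT and at 43.4, 36 and 16.4 TPM in KO. WT culture 3 had the highest and WT culture 1 the lowest LEFTY1 level of the WT cultures in 6 of 6 fractions. NODAL was highest in WT culture 3 in 5 of 6 fractions.

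The LEFTY1 comparison turned on that WT culture. With all cultures the KO difference was 0.98 (SE 1.29, limma adjusted p = 0.6158) in Input, 2.08 (adjusted p = 0.2852) in Polysome1 and 0.85 (adjusted p = 0.7172) in Polysome2. Without WT culture 3 it was 2.61 (SE 0.67, adjusted p = 0.01127) in Input and 3.44 (SE 0.67, adjusted p = 0.01113) in Polysome1, both past the threshold, and 2.40 in Polysome2. Spike-in scaling turned the direction, to -1.76 in Input, -1.78 in Polysome1 and -4.24 in Polysome2. Of these only the Polysome2 difference passed (limma adjusted p = 0.0209), where 39009 of all tested transcripts did under that scaling. WT culture 3 also had the lowest ERCC total of the WT cultures in Input and Polysome2, and what set this culture apart was not tested. The ratio of LEFTY1 to NODAL was 0.024 to 0.255 in WT culture 1, 0.119 to 0.422 in WT culture 2 and 0.694 to 1.82 in WT culture 3, against 1.0 to 1.33, 0.864 to 1.30 and 0.266 to 0.419 in KO cultures 1, 2 and 3.

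LEFTY2 is a near copy of LEFTY1, so the split of reads between the pair is uncertain. It was listed at 0 in 19 of 36 libraries and reached at most 5.44 TPM, in WT Input of culture 3. In Polysome2 it stood at 1.61, 1.60 and 4.51 TPM in WT and at 0, 0 and 2.90 TPM in KO, with overlap. Its KO differences ran from -1.09 to 0.22 over the 6 fractions, with a lowest limma adjusted p of 0.1619.

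TDGF1, the NODAL co-receptor, had its lowest KO differences in the disome and Polysome1 fractions, and neither passed the test without a block. In disome it stood at 595, 348 and 266 TPM in WT and at 17.9, 80.7 and 215 TPM in KO, without overlap. The log2 difference was -2.46 (SE 0.76, limma adjusted p = 0.0666), and with the culture as a random block it passed (SE 0.73, adjusted p = 0.0421). Without the KO disome library of culture 1, the one with most of its TPM in 10 transcripts, the TDGF1 difference was -1.52 (adjusted p = 0.4366). In disome 2.78% of all tested transcripts passed, and 0 of the 9 members did by limma, with 5 lower at an unadjusted p under 0.05, as had 21.6% of all transcripts in either direction.

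In Polysome1 TDGF1 was listed at 605, 416 and 371 TPM in WT and at 81.1, 107 and 290 TPM in KO, again without overlap, a difference of -1.73 (SE 0.76, limma adjusted p = 0.1382). Polysome1 had 5.42% of all tested transcripts past the threshold and 0 of the 9 members by limma, with 2 lower at an unadjusted p under 0.05, as had 28.0% of all transcripts in either direction. There, 19.6% of all tested transcripts lay lower in all 3 KO libraries. In Input, 40S, 80S and Polysome2 the TDGF1 libraries of the genotypes overlapped. KO culture 3 was the KO culture nearest to WT in both of the non-overlapping fractions.

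SMAD4, the shared signal carrier, fell in KO Input. It stood at 5.00, 4.54 and 5.13 TPM in WT and at 0, 0 and 1.62 TPM in KO. The log2 difference was -2.09 (SE 0.36, limma adjusted p = 0.000104), and SMAD4 was the 1 of 9 members that passed in Input, where 20.0% of all tested transcripts passed and 18% passed as lower. The 2 KO libraries at 0 are those that were less like WT Input than like WT disome, where SMAD4 stood at 0.399 to 2.91 TPM. KO Input of culture 3, which was more like WT Input, also lay below WT at 1.62 TPM. Whether the make-up of these libraries bears on the SMAD4 difference was not tested. Without KO cultures 1 and 2 the difference was -1.17 (SE 0.52, adjusted p = 0.5241), and a fit to the 6 Input libraries alone gave an adjusted p of 0.0887. Leaving out any single culture kept the SMAD4 call.

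Outside Input, SMAD4 stayed near the lower limit of the table. In disome it stood at 2.91, 0.915 and 0.399 TPM in WT and at 0.00000112, 0.0790 and 0 TPM in KO, without overlap, a difference of -1.09 (SE 0.36, limma adjusted p = 0.084). In 40S it stood at 0.435, 0.0877 and 0.0430 TPM in WT and at 0 in all 3 KO libraries, an order that 2.7% of all tested transcripts showed. A value of 0 in this table is an estimate and may be a failed one. In 10 of the 36 libraries SMAD4 was listed at 0.

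SMAD2, which carries the NODAL signal, was at 0.00645 to 0.339 TPM for the listed transcript and was not tested. In Input it stood at 0.205, 0.227 and 0.200 TPM in WT and at 0.127, 0.110 and 0.117 TPM in KO, with KO lower. In Polysome2 it stood at 0.0992, 0.105 and 0.120 TPM in WT and at 0.184, 0.149 and 0.203 TPM in KO, with KO higher. The genotypes did not overlap in either fraction, at levels below the filter. Of the tested transcripts, 29.0% lay lower in all 3 KO Input libraries and 9.86% higher in all 3 KO Polysome2 libraries.

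BMP4, the BMP ligand, was listed at 0 in 9 of 36 libraries. In Input it had 6.68, 5.80 and 2.04 TPM in WT and 0, 0.547 and 2.73 TPM in KO, with overlap between the genotypes and a difference of -1.59 (SE 0.67, limma adjusted p = 0.0917). With the culture as a random block BMP4 passed in Input (SE 0.54, adjusted p = 0.0334). In Polysome2 it had 2.53, 1.75 and 2.08 TPM in WT and 0, 0 and 1.07 TPM in KO, without overlap, and the difference was -1.28 (SE 0.67, adjusted p = 0.2236). Of all tested transcripts, 13.8% lay lower in all 3 KO libraries of Polysome2. KO culture 3 had the highest BMP4 level of the KO cultures in 6 of 6 fractions, and WT culture 3 the lowest of the WT cultures in 5 of 6.

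BMPR1A, the BMP receptor, was a low member, with KO differences of -0.45 to 1.01 over the 6 fractions and a lowest limma adjusted p of 0.4857. It lay above WT in all 3 KO cultures in 40S, at 4.85, 2.20 and 2.08 against 0.617, 1.23 and 0.945 TPM. The same held in 80S, at 3.42, 3.62 and 4.18 against 2.20, 1.69 and 2.03 TPM. In Polysome2 it stood at 4.14, 3.75 and 7.79 TPM in KO and 2.82, 3.25 and 3.44 TPM in WT. Spike-in scaling turned all 3 differences, to -0.31, -1.48 and -3.88, from 1.01, 0.67 and 0.52. In these fractions 8.99%, 7.09% and 9.86% of all tested transcripts lay higher in all 3 KO libraries, and in 80S 0.599% passed the threshold and 0 of the 9 members did by limma, with 1 (ID3) at an unadjusted p under 0.05, as had 16.8% of all transcripts.

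Over the 6 fractions 3 of 54 member tests passed (5.56%), all lower in KO, and 5.72% of the tests of all transcripts did, so the share of members called was near the background. After spike-in scaling all 9 members lay below 0 in each fraction. The median member difference was -0.92 in Input and -0.79 in Polysome2, beside -0.51 and -0.22 over all tested transcripts. In 40S the members' median was 0.05 and that of all transcripts 0.00.

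Whether the genotype difference in a gradient fraction differed from that in Input was tested as an interaction term, called a shift. SMAD4 was the only member to pass, with shifts of 1.86 in 40S (SE 0.51, limma adjusted p = 0.0275), 1.96 in 80S (adjusted p = 0.0235) and 1.97 in Polysome1 (adjusted p = 0.0285). In KO 80S SMAD4 stood at 0, 0.581 and 0.494 TPM and in KO Polysome1 at 0, 0.125 and 0.784 TPM, so the genotypes that differed in Input overlapped there. Mean WT levels of SMAD4 were only 0.189, 0.470 and 0.412 TPM in 40S, 80S and Polysome1. On the log2(TPM + 1) scale even a complete loss from such levels could not equal the Input difference. In 40S all 3 KO libraries were at 0, and the shift was still positive. The shifts did not pass with a pseudocount of 0.1. All 3 shifts use the KO Input libraries in which SMAD4 was at 0, 0 and 1.62 TPM. Without KO cultures 1 and 2 they were 0.93, 1.2 and 1.55, with adjusted p of 0.9673, 0.8576 and 0.8882, and each was also lost without KO culture 1, KO culture 2, WT culture 2 or WT culture 3. In these 3 comparisons 5.17%, 3.87% and 2.68% of all tested transcripts passed. In the disome and Polysome2 shifts 3.59% and 2.31% passed, and 0 of the 9 members did by limma, with 0 and 1 (SMAD4) at an unadjusted p under 0.05, as had 14.4% and 11.1% of all transcripts.

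For ID1 and ID3 the genotype difference in Polysome2 was not shown to differ from that in Input. The shift was -0.69 for ID1 (limma adjusted p = 0.898) and -1.17 for ID3 (adjusted p = 0.9088). The lowest member adjusted p in that comparison was 0.2612, for SMAD4. With the culture as a fixed block, BMP4 also passed in the 40S shift, at 1.64 (SE 0.51, limma adjusted p = 0.0343), and did not with the culture as a random block (adjusted p = 0.0803).

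In WT cells alone, most members made up a smaller share of the 40S libraries than of the Input libraries. 8 of the 9 tested members fell, with a median difference of -2.15 beside -0.95 over all transcripts, of which 43.2% passed and 42.5% passed as lower. TDGF1 fell furthest, by 3.79 in log2 units (SE 0.76, limma adjusted p = 0.00024), from 360, 447 and 503 TPM to 50.6, 64.2 and 8.19 TPM. The ID1 level fell by 2.35 (adjusted p = 0.0033), between 112, 143 and 268 TPM in Input and 39.4, 51.6 and 14.5 TPM in 40S. NODAL fell by 2.15, ID3 by 3.03, BMP4 by 2.03, LEFTY2 by 1.40 and BMPR1A by 1.36. In 40S ID3 stood at 17, 19.0 and 0.380 TPM, BMP4 at 0.473, 0.566 and 0 TPM and LEFTY2 at 0.197, 0 and 0 TPM, with Input levels of 0.459, 1.32 and 5.44 TPM for LEFTY2. The BMPR1A direction turned to 0.39 under quantile normalization.

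LEFTY1 was the exception in 40S, at -2.06 (SE 1.29, limma adjusted p = 0.2068). With the culture as a fixed block it passed too (SE 0.50, adjusted p = 0.001144), and its levels of 0.0745, 0.478 and 4.34 TPM in cultures 1, 2 and 3 had the same order as in Input. The WT 40S library of culture 3, which held few transcripts, gave the lowest 40S level of TDGF1, SMAD4, BMP4, ID1 and ID3. Without WT culture 2 or 3 the members called over the 5 WT fractions numbered 6 in place of 12.

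Further down the gradient SMAD4 remained below WT Input in every fraction. It fell by 2.32 in 40S (limma adjusted p = 1.301e-05), by 2.01 in 80S (adjusted p = 0.000157), by 1.43 in disome (adjusted p = 0.006607), by 2.10 in Polysome1 (adjusted p = 0.0001243) and by 1.54 in Polysome2 (adjusted p = 0.004247). Its WT levels were 0.638, 0.415 and 0.358 TPM in 80S, 0.792, 0 and 0.444 TPM in Polysome1 and 0.223, 1.81 and 1.43 TPM in Polysome2, all below the 4.54 to 5.13 TPM of Input. Spike-in scaling turned the disome and Polysome2 directions, to 0.035 and 1.28. It was the 1 of 9 members called in each of these 4 fractions after 40S, where 22.4%, 14.8%, 12% and 12.1% of all transcripts passed. With the culture as a fixed block, LEFTY2 also passed in 80S and disome at -1.34 and -1.32 (adjusted p = 0.01218 and 0.01749), TDGF1 in 80S at -1.71 (adjusted p = 0.0217), BMP4 in 80S at -1.11 (adjusted p = 0.0194, and 0.0535 with a random block) and ID1 in Polysome2 at 1.62 (SE 0.51, adjusted p = 0.0233).

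**Figure D4:**
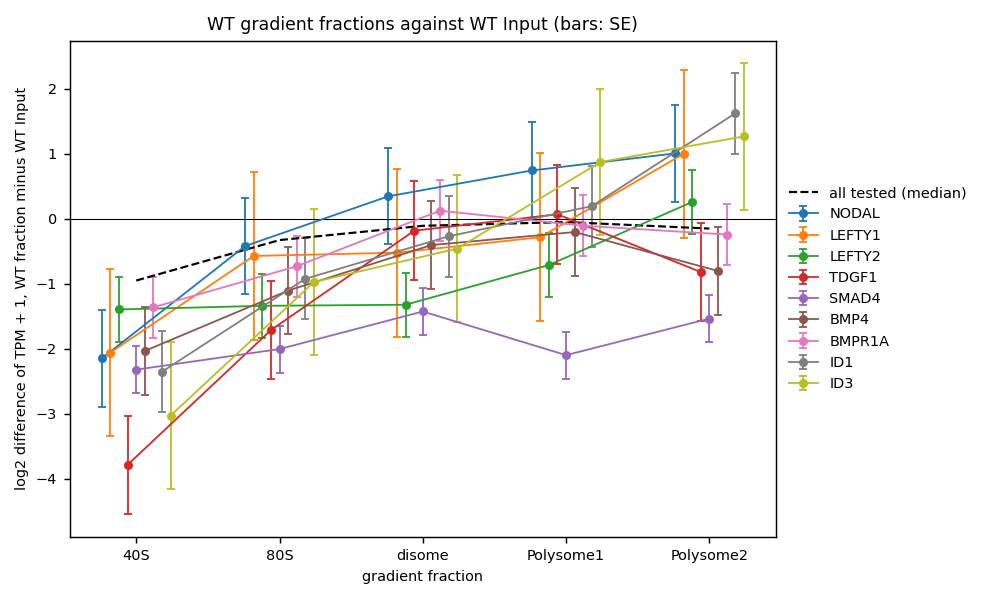
Difference of each WT gradient fraction from WT Input for the 9 tested members, as log2 difference with bars of 1 SE and a dashed line at the median of all tested transcripts. All 9 members lie below 0 in 40S and 80S, where 1 member in each turned under quantile normalization and 6 in 80S under spike-in scaling, and in Polysome2 ID1 at 1.62, ID3 at 1.27, NODAL at 1.01 and LEFTY1 at 1.0 lie above it while SMAD4 lies at -1.54.

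Polysome2, the fraction past Polysome1, was then set against 80S, the fraction of single ribosomes. This comparison was chosen after the values were seen. In WT, ID1 stood at 53.5, 75.9 and 153 TPM in 80S and at 395, 525 and 616 TPM in Polysome2, a rise of 2.55 in log2 units (SE 0.63, limma adjusted p = 0.01017). LEFTY2 rose by 1.60 (adjusted p = 0.0335), with 0.346, 0 and 0 TPM in 80S and 1.61, 1.60 and 4.51 TPM in Polysome2. All 9 members had positive differences, 8 of them under quantile normalization and under median-of-ratios scaling, with a median of 1.43 beside 0.23 over all transcripts, and 2 of 9 passed where 13.1% of all transcripts did. With the culture as a fixed block NODAL (1.43, adjusted p = 0.0289), LEFTY1 (1.57, adjusted p = 0.0188, and 0.1169 with a random block) and ID3 (2.24, adjusted p = 0.0131) passed as well. The ID1 call was lost without WT culture 1 (adjusted p = 0.1373) or WT culture 2 (adjusted p = 0.1387).

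In KO the same step for ID1 was 0.76 (limma adjusted p = 0.9338), from 72.9, 33.7 and 74.5 TPM to 115, 55.2 and 144 TPM. In KO 1.45% of all transcripts passed and 0 of the 9 members did by limma, and 0 at an unadjusted p under 0.05, as had 8.77% of all transcripts. The difference between the genotypes in this step was -1.79 for ID1 (SE 0.88, adjusted p = 0.5656) and negative for all 9 members, 8 of them under quantile normalization and under median-of-ratios scaling. By limma 0 members passed, where 0.0901% of all transcripts did, and 0 were at an unadjusted p under 0.05, as were 8.91% of all transcripts.

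Within a culture, the Polysome2 level divided by the 80S level separated the genotypes for 4 of the 6 members listed above 0 in all libraries and tested. For ID1 it was 4.03, 6.92 and 7.39 from lowest to highest in WT and 1.57, 1.64 and 1.93 in KO. For ID3 it was 3.07, 4.90 and 7.64 in WT and 1.44, 1.80 and 2.63 in KO. For NODAL it was 2.10, 3.21 and 3.57 in WT and 1.42, 1.47 and 1.70 in KO, and for LEFTY1 2.71, 3.61 and 5.14 against 1.83, 2.09 and 2.14. All 3 KO cultures, including culture 3, lay below all 3 WT cultures for these genes, whereas TDGF1 and BMPR1A overlapped. The separation depended on the fraction divided by. With Input in place of 80S, the genotypes overlapped for every one of the 6 members but ID3. That ratio was 2.30 to 3.67 in WT and 1.47 to 2.39 in KO for ID1. It was 1.95 to 2.85 in WT and 0.703 to 1.88 in KO for ID3.

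These ratios are a description with no test. Of 18426 transcripts with the ratio in all 6 cultures, 17% were lower in all KO cultures and 15.4% higher. Unlike a ratio of 2 transcripts in 1 library, a ratio of 2 libraries depends on how each is scaled.

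**Figure D5:**
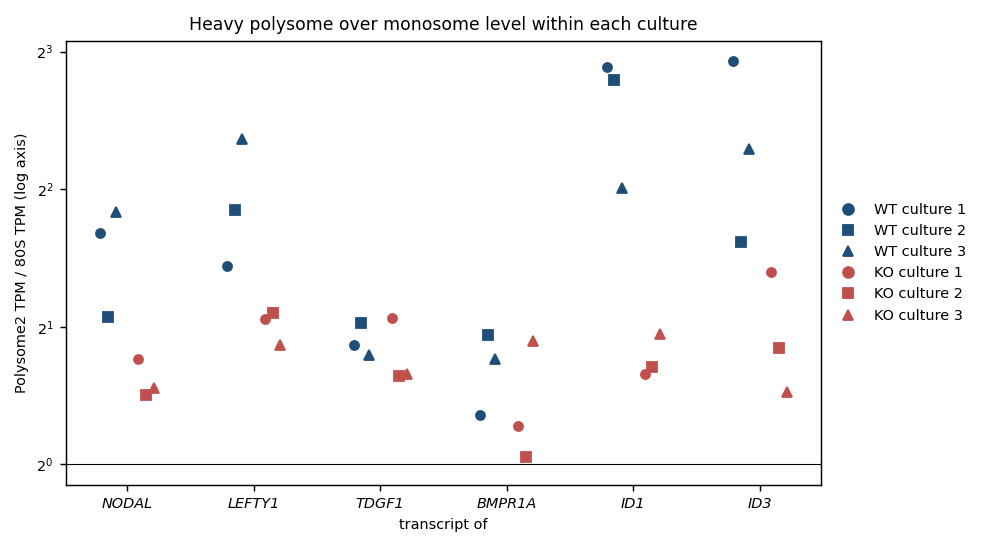
Polysome2 TPM divided by 80S TPM within each of the 6 cultures, on a log2 axis, for NODAL, LEFTY1, TDGF1, BMPR1A, ID1 and ID3, with WT in blue and KO in red. ID1 shows the widest gap, with WT at 4.03 to 7.39 and KO at 1.57 to 1.93, and TDGF1 and BMPR1A show overlapping groups.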

How the data were processed

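The authors deposited TPM per Ensembl transcript for 36 libraries of paired 75 nt reads from stranded poly(A) kits. Per the submitters' processing notes, kallisto, sleuth and the build hg19 were used, whose versions the sources used here do not give. Groups and cultures came from the titles and from descriptions such as WT1, 1 name for each of 6 cultures. The description of the KO culture 3 Input reads Input2. TPM keeps no depth, so no counting interval is given, and a listed 0 is an estimate.

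The filter was 1 TPM in 3 or more libraries, which kept 51052 transcripts, and the 92 ERCC rows were set aside. Log2(TPM + 1) was fitted with 12 group means in limma 3.58.1 (R 4.3.3), leaving 24 residual degrees of freedom, with the variance trend on. P-values were Benjamini-Hochberg adjusted within each of 16 planned and 3 added comparisons over all tested transcripts, with a threshold of 0.05. A log2 difference on this scale understates changes of low transcripts. The fit takes libraries of a culture as independent. The script was tested on simulated data. Python 3.11.15 with pandas 2.3.3, numpy 2.4.6 and matplotlib 3.10.9 served for tables and figures.

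Per the labels, libraries of a culture share it: deviations of a fraction and of Input in the same culture correlated at -0.12 to 0.70 (median 0.25), so results are also given with the culture as a block where that changes a call (a fixed block for fractions and shifts, a random block for KO against WT). The random block set 1 correlation, 0.3264, for all transcripts, so its SE may be too small for a member whose cultures differ more. Equal numbers in WT and KO correlated at -0.71 to 0.11 (median -0.12) and pair nothing.

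Members and comparisons were chosen with earlier results of these data known. Every member is named, with every library's value where it passed the threshold or the genotypes did not overlap, and by ranges otherwise. No table given pairs transcript IDs with genes, so the listed pathway genes, cell type markers, RBPMS and a planned sum over each gene's transcripts were not analysed here. Symbols are those of the member list. Promoters came from RefSeq (GRCh38.p14), which listed 7 of the 10 members, and no protein was used here.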

Additional observations from a re-analysis of the deposited data

Results flagged for a closer look

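SMAD4 passed the interaction term of the limma fit, which compares how far KO lay from WT in a gradient fraction and in Input. The difference between the genotype effects was 1.86 for 40S, 1.96 for 80S and 1.97 for Polysome1 on the log2 scale. Mean WT levels there were only 0.189, 0.470 and 0.412 TPM, too low for a loss as large as that in Input on this scale. In 40S every KO library was at 0, so a KO level nearer to WT cannot be read from that shift. No shift passed with a pseudocount of 0.1.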

How the results depend on the processing

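Over 56 named member results and 17 alternatives, 747 values kept direction and side of the threshold, 74 passed it newly, 89 no longer passed and 19 changed direction. Most of the 56 results had not passed in the main fit, so the 747 include many that did not pass in either fit. The 89 come only from the results that had passed. The members called were 3 for KO against WT, 12 for WT fractions against Input and 3 for shifts. In that order they were 2, 10 and 0 with a pseudocount of 0.1, 2, 4 and 0 with a filter of 10 TPM, under which only 5 members were tested and LEFTY2, SMAD4, BMP4 and BMPR1A were not, 3, 7 and 2 with quantile normalization, 28, 19 and 0 with ERCC scaling, and 0, 10 and 0 with only the groups compared. The replicate block gave 7, 18 and 4 members, culture as a random block (correlation 0.3264) 7, 17 and 3 (for KO against WT it added ID3 in Input and Polysome1, TDGF1 in disome and BMP4 in Input), both KO cultures 1 and 2 left out 0, 13 and 0, and the KO disome library of culture 1 left out, chosen after seeing the data, 5, 13 and 3. Leaving out each culture gave 1 to 18, 6 to 15 and 0 to 3: without KO culture 3 the members called for KO against WT were 18, without WT culture 3 they were 6 and without any other culture 1, the WT fraction calls were 6 without WT culture 2 or 3, and the shifts were 0 without WT culture 2 or 3 or KO culture 1 or 2. The cause was not tested. For KO against WT, ERCC scaling called 6909, 0, 12241, 27302, 39131 and 39009 of all tested transcripts from Input to Polysome2. Without that scaling the calls were 10192, 12, 306, 1420, 2769 and 2817. The 28 members called under ERCC scaling thus came with a far higher background from 80S onward. The background for the fits without a culture is not given here, so their member counts cannot be set against it. The number shared by WT and KO cultures is not a pairing, and blocking on it brought ID1 (-1.67, limma adjusted p = 0.0285) and ID3 (-2.75, adjusted p = 0.0327) in Input, ID3 in Polysome1 and TDGF1 in disome (adjusted p = 0.0450) past the threshold.

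Directions turned as follows. ERCC scaling gave NODAL -2.21 in Input, -0.60 in 40S and -4.97 in Polysome2, LEFTY1 -1.76 in Input, -1.78 in Polysome1 and -4.24 in Polysome2, BMPR1A -0.31 in 40S, -1.48 in 80S and -3.88 in Polysome2, and, in WT against Input, SMAD4 0.035 in disome and 1.28 in Polysome2 and BMP4 0.0033 in 80S. Quantile normalization gave BMPR1A 0.39 in WT 40S. Leaving out KO cultures 1 and 2 gave ID1 0.11 and ID3 1.07 in 40S. Leaving out single cultures gave NODAL between -0.0011 and 1.25 in Input, NODAL between -0.22 and 1.06 in Polysome2, and LEFTY1 -0.13 to 2.40 in Polysome2. Of all calls in KO against WT Input 90.1% were lower, 68.9% under quantile normalization and 99.8% under ERCC scaling. Depth is unknown, so what it limits cannot be stated. The sum over a gene's transcripts was not run.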
